A study of Mus musculus with 12 samples.

Results

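The knockdown and the overexpression of lncRNA5251, each set against its own vector control, were compared gene by gene in C18-4 cells, and the genes that moved in opposite directions are described here. For every gene the change from 3NC to the knockdown was taken, the change from 5NC to the overexpression was taken, and the second was subtracted from the first on the scale of log2(RPKM + 1), where RPKM is the number of reads of a gene scaled by its length and by the mapped reads of the library. All 12 libraries of the series entered, and 11435 of the 17576 genes in the deposited table had at least 1 RPKM in at least 3 libraries and were tested. C18-4 cells are mouse spermatogonia that were immortalized, and the labels give the strain as IRC mouse. The 4 groups held 3 libraries each. The knockdown group, C18_5251KD in the labels, was transfected with a mixture of 3 shRNAs against lncRNA5251 in the LV3 lentiviral vector, and its control, 3NC, with a control shRNA in LV3. The overexpression group, C18_5251OV, was transfected with the LV5 vector for overexpression of lncRNA5251, and its control, 5NC, with LV5 alone. All groups were stable transfectants, no untransfected cells were measured, and the sources used here do not say how many clones or cultures a group comes from, so p-values measure the spread between these libraries, which may be technical.

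A long noncoding RNA can be studied by removing it and by adding it, so the same gene can be read in both directions. C18-4 cells serve as a model of the stem cells of the seminiferous epithelium, whose descendants cross the barrier formed by junctions between Sertoli cells. Growth factor signals reach such cells through receptor tyrosine kinases and the ERK kinases, which switch on transcription factors of the AP-1 and ETS families, while ribosomes are assembled in the nucleolus from ribosomal RNA by a large set of processing factors.

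The shRNAs are shown because they define the knockdown arm. The whole of each knockdown sequence was matched exactly, in the sense direction, by transcripts of 1 gene, Purb, among 141767 mouse transcripts of GENCODE on GRCm38, and the sites lie in its 3' UTR. The control sequence of 19 bases had no exact match.
shRNA 1, chr11:6468416-6468436, minus strand: gctgggacttaatgtccttct
shRNA 2, chr11:6467969-6467989, minus strand: gcatgggcaattcaaacaaat
shRNA 3, chr11:6468248-6468268, minus strand: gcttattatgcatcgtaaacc
3NC control shRNA: ttctccgaacgtgtcacgt
Purb encodes a single-stranded DNA and RNA binding protein of the Pur family. Its RPKM was 32.9, 34.1 and 33.8 in 3NC, 8.93, 8.79 and 10.3 in the knockdown, 29.2, 32.1 and 30.7 in 5NC, and 23.9, 24.2 and 33.3 in the overexpression. The knockdown libraries lay below all others, and the overexpression libraries overlapped those of 5NC. Purb fell by 1.75 ± 0.0966 (SE) on the log2 scale in the knockdown (adjusted p = 1.69e-09), differed by -0.19 ± 0.0966 in the overexpression (adjusted p = 0.176), and the difference between both effects was -1.56 ± 0.137 (adjusted p = 4.24e-07, limma, Benjamini-Hochberg). Effects of these shRNAs through Purb and through lncRNA5251 cannot be told apart in these libraries, and the level of lncRNA5251 itself was not analysed here.

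The labelled cell type was compared with its markers. Of 22 spermatogonial markers in the table, 17 stayed below 1 RPKM in every library, among them Gfra1, Ret, Zbtb16, Dazl and Ddx4, which mark stem and differentiating germ cells. The markers that passed were Cd9, Etv5, Foxo1, Id4 and Uchl1, and Uchl1 ranged from 60.1 to 123 RPKM. Of 12 genes of later germ cells 11 stayed below 1 RPKM everywhere. Of 15 Sertoli cell genes 9 stayed below 1 RPKM, among them Sox9, Amh, Dmrt1 and Cldn11. The 6 that passed were Clu, Ctsl, Gata4, Inha, Rhox5 and Wt1, and Wt1 ranged from 49.8 to 57.5 and Gata4 from 3.98 to 6.77. Of 11 genes of peritubular smooth muscle 6 stayed below 1 RPKM, among them Myh11. The 5 that passed were Acta2, Cnn1, Des, Smtn and Tagln, and Tagln ranged from 45.5 to 67.0 and Acta2 from 8.16 to 23.1. In bulk RNA, fewer cells of a type and less RNA per cell cannot be told apart.

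The difference between both effects passed an adjusted p of at most 0.001 with at least 1 on the log2 scale for 328 genes, 2.87% of those tested. Of these, 167 genes (1.46%) were higher and 161 (1.41%) were lower in the knockdown effect than in the overexpression effect. By the same threshold the knockdown against 3NC called 57 genes higher (0.498%) and 123 lower (1.08%), and the overexpression against 5NC called 0 genes, although 4240 genes (37.1%) had an unadjusted p under 0.05 there (limma) and 923 (8.07%) were higher and 1595 (13.9%) lower with an adjusted p up to 0.05. With a pseudocount of 0.1 the overexpression called 2 genes higher and 2 lower. The larger of both effects was that of the knockdown for 156 of the 167 higher genes and for 157 of the 161 lower genes, against 68.1% of all genes. Opposite movement in both arms at an adjusted p of at most 0.05 was seen for 108 of the 167 and for 76 of the 161. The other genes past the threshold were mostly changed in the knockdown alone, 57 of the higher and 82 of the lower ones.

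The genes with the largest differences show both kinds. The largest fall was that of Fosl1, a subunit of AP-1, with a difference of -4.68 ± 0.174 (adjusted p = 1.84e-10), followed by Gsta1, a glutathione transferase, with -3.12 ± 0.108 (adjusted p = 1.24e-10), and Gm3776, a predicted gene with -2.72 ± 0.285 (adjusted p = 2.46e-06). These genes moved in opposite directions. Gsta1 and Gm3776 belong to a family of near-identical copies, and how reads were divided between them is not known. Sprr1a, a precursor of the cornified envelope of keratinocytes, had a difference of -2.35 ± 0.176 (adjusted p = 8.75e-08), but its overexpression effect was 0.06 ± 0.125 (adjusted p = 0.743). The largest rises were in Ugt2a2, a glucuronosyltransferase, with 2.82 ± 0.119, Ly6f, a surface antigen of the Ly6 family, with 2.22 ± 0.118, a predicted locus named LOC102633156 with 2.19 ± 0.453, and Myl9, a regulatory light chain of myosin II, with 2.03 ± 0.129. Ugt2a2 was listed at 0 in 8 of the 9 libraries outside the knockdown and at 5.63, 5.57 and 6.80 RPKM within it, so its difference lies in the knockdown arm. Of these 4 only Myl9 passed the test in both arms.

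In all, 1115 genes (9.75%) moved in opposite directions, with an adjusted p of at most 0.05 in each effect and in their difference. Of these, 692 (6.05%) were higher in the knockdown and lower in the overexpression, and 423 (3.7%) were lower in the knockdown and higher in the overexpression. Fewer genes, 391 (3.42%), moved in the same direction in both arms, 165 upward (1.44%) and 226 downward (1.98%). The effects were small: among the genes that rose in the knockdown the median was 0.38 in the knockdown and -0.29 in the overexpression, and among those that fell it was -0.39 and 0.25, all on the log2 scale. The libraries of construct and own control did not overlap in either arm for 655 of the 692 and 406 of the 423 (24.2% of all genes), which describes the genes and follows largely from their choice on these libraries. The knockdown effect was the larger one for 481 of the 692 (69.5%) and for 324 of the 423 (76.6%), against 68.1% of all genes. Across all 11435 genes the Pearson correlation of both effects was -0.21 and Spearman's rho -0.22, which describes genes of 12 libraries that share depth and base composition, and genes are not independent replicates. The split between the directions depended on scaling. Of the opposite genes 62.1% were higher in the knockdown, against 49.2% after quantile normalization (436 and 451 genes) and 79.3% after scaling all libraries to the same RPKM sum (985 and 257 genes). The difference itself was split 50.9% to higher with RPKM as deposited, 36.2% after quantile normalization and 60.5% after scaling to the same sum.

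**Figure D1:**
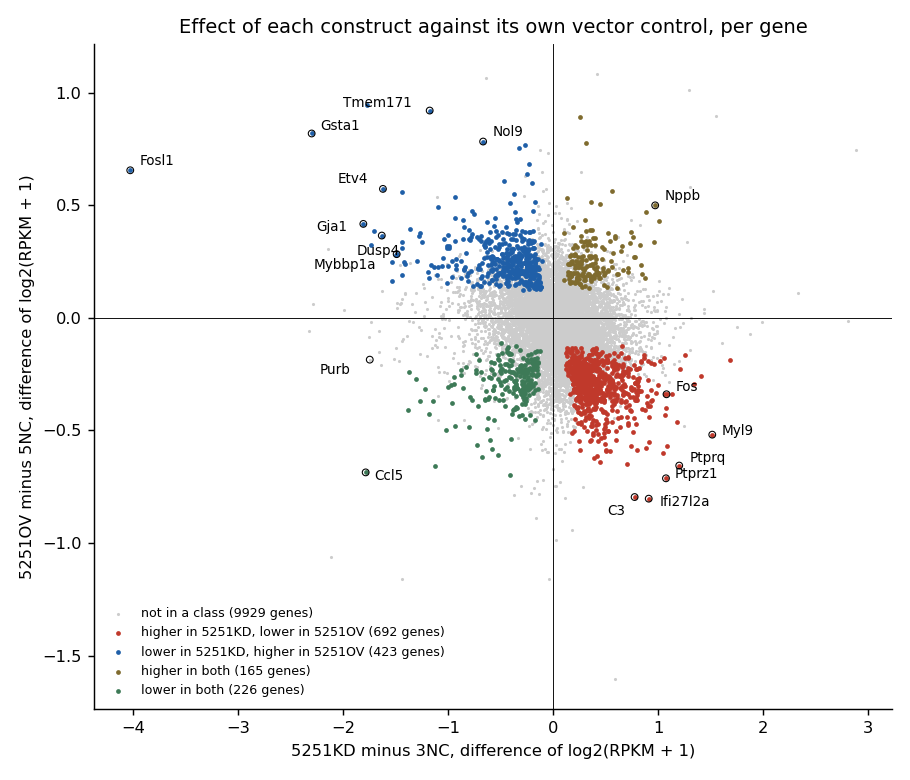
Each point is a gene, with the change from 3NC to the knockdown on the horizontal axis and the change from 5NC to the overexpression on the vertical axis, both as differences of mean log2(RPKM + 1) over 3 libraries a group. Coloured points are the 692 and 423 genes of the opposite classes and the 165 and 226 genes that moved the same way, and the knockdown effects spread over a wider range than the overexpression effects.

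Some opposite genes lay on both sides of the controls, and others did not, and 3NC and 5NC differed from each other. The difference between 5NC and 3NC passed an adjusted p of at most 0.05 for 3540 genes upward (31.0%) and 2926 downward (25.6%), and it uses the control libraries of both arms. Of the 692 genes higher in the knockdown and lower in the overexpression, 360 were higher in 5NC than in 3NC and 97 were lower. Of the 423 genes with the reverse pattern, 217 were lower in 5NC than in 3NC and 72 were higher. For such genes a level between both controls gives opposite signs. A stricter pattern, chosen after the data were seen, asks that the 3 libraries of 1 construct lie above and the 3 of the other below all 6 control libraries. It held for 777 genes (6.79%), with 464 high in the knockdown and low in the overexpression (4.06%) and 313 the other way round (2.74%), while both constructs lay above all controls for 97 genes (0.848%) and below them for 129 (1.13%), 226 in all (1.98%). The split was 328 and 369 genes after quantile normalization, 534 and 248 after scaling to the same sum and 600 and 217 after the correction for length, GC content and level. Of the opposite genes called by the test, 259 of 692 and 178 of 423 had it. When the controls were exchanged, 268 of the 692 and 182 of the 423 kept both signs with an adjusted p of at most 0.05 against the other vector's control, as did 2603 of all 11435 genes, and these comparisons share libraries with the calls.

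Among genes lower in the knockdown and higher in the overexpression, Nol9, a polynucleotide kinase of ribosomal RNA processing, had the largest smaller effect of those outside both controls. Nol9 was at 15.2, 16.0 and 15.0 RPKM in 3NC and 15.0, 14.4 and 13.8 in 5NC, at 10.6, 8.90 and 8.56 in the knockdown and at 25.1, 26.7 and 24.7 in the overexpression. The controls met, and the constructs lay clearly on either side. The effects were -0.67 ± 0.0695 (adjusted p = 1.31e-06) and 0.78 ± 0.0695 (adjusted p = 1.37e-05), with a difference of -1.45 ± 0.0983 (adjusted p = 3.24e-08). Krt80, a type II keratin, was at 7.84, 7.37 and 6.91 RPKM in the knockdown, between 10.3 and 13.1 in the 6 controls, and at 20.1, 19.9 and 17.5 in the overexpression, a difference of -1.08 ± 0.0966. Ankrd1, a cardiac ankyrin repeat protein and a target of YAP, was at 93.0, 95.8 and 102 RPKM in the knockdown, between 115 and 146 in the controls, and at 159, 160 and 152 in the overexpression, a difference of -0.997 ± 0.0597. Perp, a desmosomal protein induced by p53, was at 0.71, 0.95 and 0.82 RPKM in the knockdown and at 4.70, 4.02 and 4.16 in the overexpression, with the controls between 2.06 and 3.09. In each of these genes the constructs overlapped neither each other nor the controls.

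Of the 12 genes of that direction with the largest smaller effect, those were the 4 outside both controls. The other 8 had 5NC well below 3NC. Tmem171, a transmembrane protein, was at 6.25, 7.57 and 7.44 RPKM in 3NC and 2.31, 2.76 and 2.64 in the knockdown, but at 0.88, 0.68 and 1.03 in 5NC and 3.02, 2.64 and 1.97 in the overexpression. Both constructs thus stood at nearly the same level, between the controls, while the difference of the effects was -2.10 ± 0.157 (adjusted p = 8.81e-08). Angptl4, a secreted inhibitor of lipoprotein lipase, and Mpp2, a membrane scaffold of the MAGUK family, had this pattern as well, with differences of -1.47 ± 0.117 and -1.29 ± 0.0919 and 5NC below 3NC by 1.98 and 1.5. All 12 kept their class in each of the 20 alternatives other than the stricter threshold.

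Among genes higher in the knockdown and lower in the overexpression, C3, the central component of complement, was at 110, 108 and 105 RPKM in 3NC and 186, 191 and 177 in the knockdown, and at 57.9, 59.7 and 57.1 in 5NC and 33.9, 34.1 and 31.5 in the overexpression. The knockdown stood above and the overexpression below every control library, although the controls themselves differed. The effects were 0.77 ± 0.0456 and -0.80 ± 0.0456, and the difference was 1.57 ± 0.0645 (adjusted p = 4.65e-10). Abca5, a lipid transporter of the ABC family, was at 9.30, 8.93 and 10.6 RPKM in the knockdown, between 4.57 and 5.45 in the controls and at 2.80, 2.89 and 3.96 in the overexpression, a difference of 1.46 ± 0.131. Susd2, a sushi domain surface protein, was at 9.46, 9.29 and 8.19 RPKM in the knockdown, between 2.91 and 3.91 in the controls and at 2.13, 2.18 and 1.63 in the overexpression, a difference of 1.65 ± 0.137. Asah2, the neutral ceramidase, was at 7.47, 6.56 and 7.11 in the knockdown, between 3.42 and 4.11 in the controls and at 1.79, 1.89 and 2.92 in the overexpression, a difference of 1.38 ± 0.152. These genes were on either side of all controls, and replicate 3 of the overexpression was the library nearest to the controls for Abca5 and Asah2.

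The remaining genes of the 12 largest in that direction included the receptor phosphatases Ptprz1 and Ptprq, the matrix protein Abi3bp, the arrestin relative Arrdc4, the centriole protein Cntln and the interferon-inducible Ifi27l2a. Ptprz1 was at 3.56, 3.53 and 3.67 RPKM in 3NC, 8.58, 8.20 and 9.18 in the knockdown, 18.7, 19.4 and 19.6 in 5NC and 10.4, 10.4 and 13.4 in the overexpression. As for Tmem171, both constructs lay between the controls, here with 5NC above 3NC by 2.14. The differences of the effects of these 6 genes ran from 1.14 ± 0.0868 for Cntln to 1.85 ± 0.157 for Ptprq. Tmem245, a transmembrane protein, lost its class without replicate 1 or replicate 2 of the overexpression, and the other 11 kept it in all 20 alternatives.

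**Figure D2:**
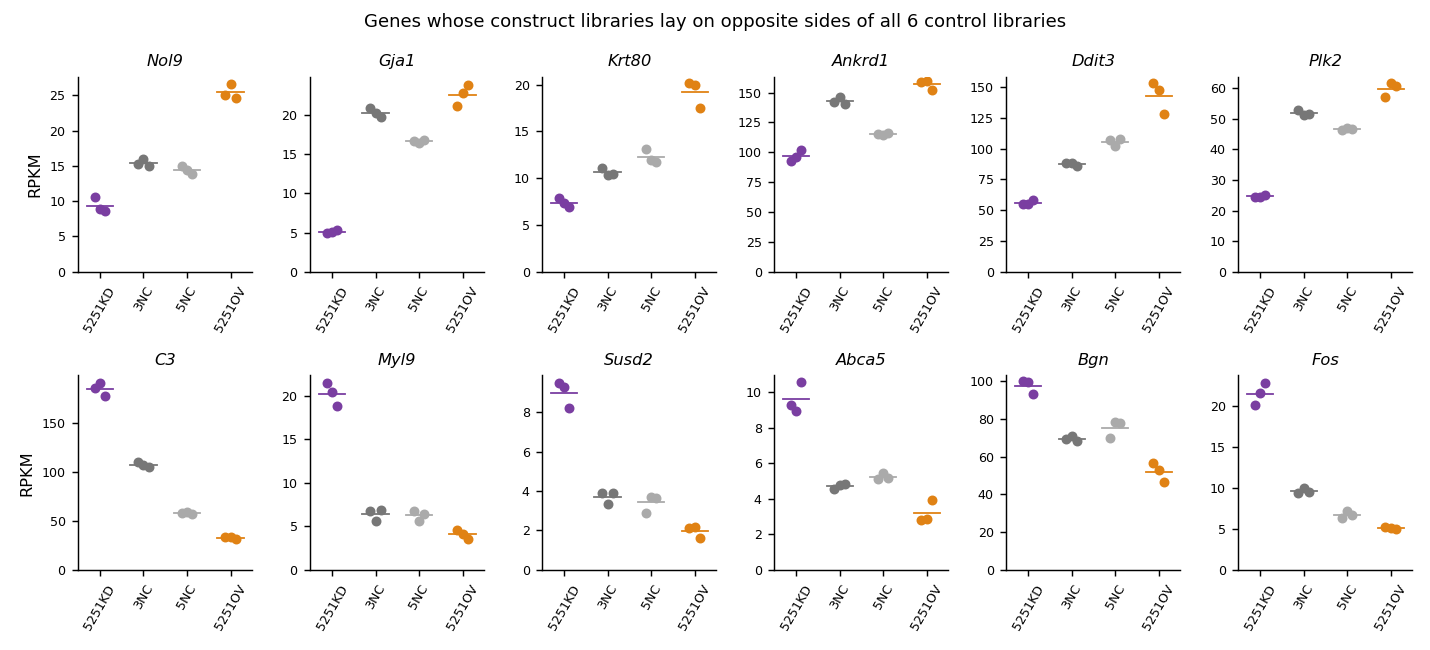
RPKM of 12 genes in each library, with 3 points and a line at the mean for each of the knockdown, 3NC, 5NC and the overexpression, on linear axes from 0. In the upper 6 genes the knockdown points lie below and the overexpression points above all 6 control points, as for Nol9, and in the lower 6 the reverse holds, as for C3.

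ERK output genes were mostly lower in the knockdown effect than in the overexpression effect. Of 24 tested genes of this list, which holds feedback inhibitors, immediate targets and transcription factors downstream of ERK, 15 passed the threshold of the difference downward and 0 upward, against 1.41% and 1.46% of all genes, and 10 (41.7%, against 3.7% of all genes) were opposite genes. The median difference over the list was -1.25, against 0.07 over all genes, with a median of -1.17 in the knockdown and 0.19 in the overexpression. The 10 opposite genes ran from 7 to 11 as single libraries were left out. They numbered 12 after quantile normalization, 8 after scaling to the same sum and 10 after the correction for length, GC content and level. Fosl1 was at 31.2, 29.8 and 31.9 RPKM in 3NC and at 1.45, 0.69 and 0.81 in the knockdown, and it was at 1.61, 1.98 and 1.58 in 5NC and 3.44, 3.77 and 2.70 in the overexpression. Its overexpression effect, 0.66 ± 0.123 (adjusted p = 0.00354), started from a control that differed from 3NC by -3.56 on the log2 scale. Etv4, an ETS factor of the PEA3 group, was at 32.2, 30.2 and 31.6 RPKM in 3NC, 10.5, 10.1 and 8.07 in the knockdown, 3.40, 3.73 and 3.63 in 5NC and 6.37, 5.88 and 5.25 in the overexpression. Dusp4, a phosphatase that inactivates ERK, was at 23.1, 23.3 and 25.4, at 7.19, 7.04 and 6.87, at 11.8, 14.5 and 12.7 and at 15.3, 16.4 and 19.5 in the same order, and its difference was -2.0 ± 0.118 (adjusted p = 7.84e-09). Dusp4 stood on the low side of 5NC in the knockdown, but its overexpression libraries did not reach 3NC. Phlda1, a pleckstrin homology protein induced by growth factors, had a difference of -1.65 ± 0.0838. Of the 24 genes 2 were low in the knockdown and high in the overexpression outside both controls, against 2.74% of all genes. They were Myc, the growth regulator, with effects of -1.50 and 0.28, and Lif, a cytokine of the interleukin 6 family, with -1.41 and 0.24. Both were singled out after their values were seen. Lif lost its class in 6 of 20 alternatives. Egr1, a zinc finger factor of the same list also singled out, moved downward in both arms, with -1.19 and -0.43.

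AP-1 subunits and immediate early genes did not move as 1 group. Of 23 tested genes 7 (30.4%) were lower in the knockdown and higher in the overexpression, and 1 had the reverse pattern, against 3.7% and 6.05% of all genes. That gene was Fos, whose RPKM was 9.46, 9.97 and 9.58 in 3NC, 20.1, 21.7 and 22.9 in the knockdown, 6.36, 7.19 and 6.71 in 5NC and 5.25, 5.11 and 5.01 in the overexpression. Fos lay above all controls in the knockdown and below them in the overexpression, with a difference of 1.42 ± 0.0884 (adjusted p = 1.41e-08), while Fosl1 of the same family had the largest difference in the other direction. Dusp1, a phosphatase of MAP kinases, was at 16.9, 18.2 and 16.1 RPKM in the knockdown, between 18.2 and 23.9 in the controls and at 28.3, 27.9 and 27.3 in the overexpression. Its effects were -0.42 ± 0.0606 and 0.51 ± 0.0606, and the knockdown libraries lay just below the lowest control. Btg2, an antiproliferative target of p53, had a difference of -1.59 ± 0.12 with 5NC lower than 3NC by 0.89. The median difference of the list was -0.53. The 7 genes ran from 5 to 8 as single libraries were left out. They numbered 8 after quantile normalization, and 5 both after scaling to the same sum and after the correction for length, GC content and level. Fosl1 and Ier3 were opposite genes of both this list and the ERK output list, so these lists are not separate.

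Growth factor ligands and receptors held opposite genes of both directions. Of 37 tested genes 7 (18.9%) were higher in the knockdown and lower in the overexpression and 2 (5.41%) had the reverse pattern, against 6.05% and 3.7% of all genes. The median difference was 0.37. The counts were 5 and 2 after quantile normalization and 10 and 1 after scaling to the same sum. The 7 became 3 without replicate 2 of the overexpression and 4 without replicate 2 or 3 of 5NC, and the 2 became 1 without replicate 2 of the overexpression or replicate 1 or 3 of 5NC. Fgf21, an endocrine fibroblast growth factor, was at 8.76, 9.50 and 8.98 RPKM in 3NC, 16.9, 14.4 and 14.8 in the knockdown, 59.9, 62.1 and 63.5 in 5NC and 47.1, 46.4 and 42.5 in the overexpression. Its effects were 0.70 and -0.44, but both were small beside the difference of 2.64 between 5NC and 3NC. Pdgfd and Pdgfc, ligands of the PDGF receptors, moved in opposite ways to each other: the difference was 1.07 for Pdgfd and -0.59 for Pdgfc, and Pdgfc was outside both controls.

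Ribosome biogenesis genes were lower in the knockdown effect than in the overexpression effect throughout most of the list. All 60 genes of the list were tested, and 19 of them passed the threshold of the difference downward and 0 upward, against 1.41% and 1.46% of all genes. Of the 60, 17 (28.3%) were lower in the knockdown and higher in the overexpression, and 0 had the reverse pattern, against 3.7% and 6.05% of all genes. The median effect was -0.68 in the knockdown and 0.09 in the overexpression, with 44 of 60 genes below 0 in the first and above 0 in the second, against 2644 of all 11435. The overexpression median was 0.09 after quantile normalization, 0.03 after scaling to the same sum and 0.05 after the correction for length, GC content and level. The overexpression side was thus the small one: 19 of 60 genes rose there and 2 fell at an adjusted p of at most 0.05, against 8.07% and 13.9% of all genes. Of the 60 genes, 15 lay outside both controls, against 2.74% of all genes, and 9 of them were among the opposite genes. Mybbp1a, a nucleolar Myb-binding protein, was at 143, 145 and 143 RPKM in 3NC, 52.1, 53.1 and 46.2 in the knockdown, 116, 112 and 113 in 5NC and 139, 142 and 134 in the overexpression. The overexpression libraries lay above 5NC and below 3NC, and the difference was -1.77 ± 0.0703 (adjusted p = 3.42e-10). Bop1, a subunit of the PeBoW complex of large subunit maturation, was at 21.9, 20.7 and 18.5 RPKM in the knockdown, between 28.7 and 34.6 in the controls and at 42.0, 39.6 and 35.2 in the overexpression, a difference of -1.09 ± 0.0968. Rrp9, a component of the U3 snoRNP, was at 10.5, 10.7 and 9.31 RPKM in the knockdown, between 19.9 and 23.1 in the controls and at 29.2, 28.8 and 27.3 in the overexpression, a difference of -1.31 ± 0.0848. Both genes lay on either side of all controls. Polr1e, a subunit of RNA polymerase I, had a difference of -1.19 ± 0.108, but its overexpression effect of 0.26 ± 0.0767 (adjusted p = 0.0268) was not called in 6 of 20 alternatives. The count of opposite genes in this list was 14 after quantile normalization, 8 after scaling to the same sum and 10 after the correction for transcript length, GC content and level, and it ran from 4 to 24 as single libraries were left out. It was 24 without replicate 3 of the overexpression, 5 and 4 without its replicates 1 and 2, and 8, 6 and 8 without replicates 1, 2 and 3 of 5NC. Ribosomal protein genes themselves showed less: 3 of 77 (3.9%) were opposite genes of that direction, against 3.7% of all genes, and the median difference was -0.13. That count was 21 without replicate 3 of the overexpression, 6 without replicate 3 of the knockdown and 0 without replicate 1 or 2 of the overexpression or any library of 5NC. It was 1 after quantile normalization and 0 after the correction for length, GC content and level, where 5 genes had the reverse pattern, against 0 as deposited. The median difference of the ribosomal protein genes was -0.01 after quantile normalization, -0.07 after scaling to the same sum and 0.04 after that correction.

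**Figure D3:**
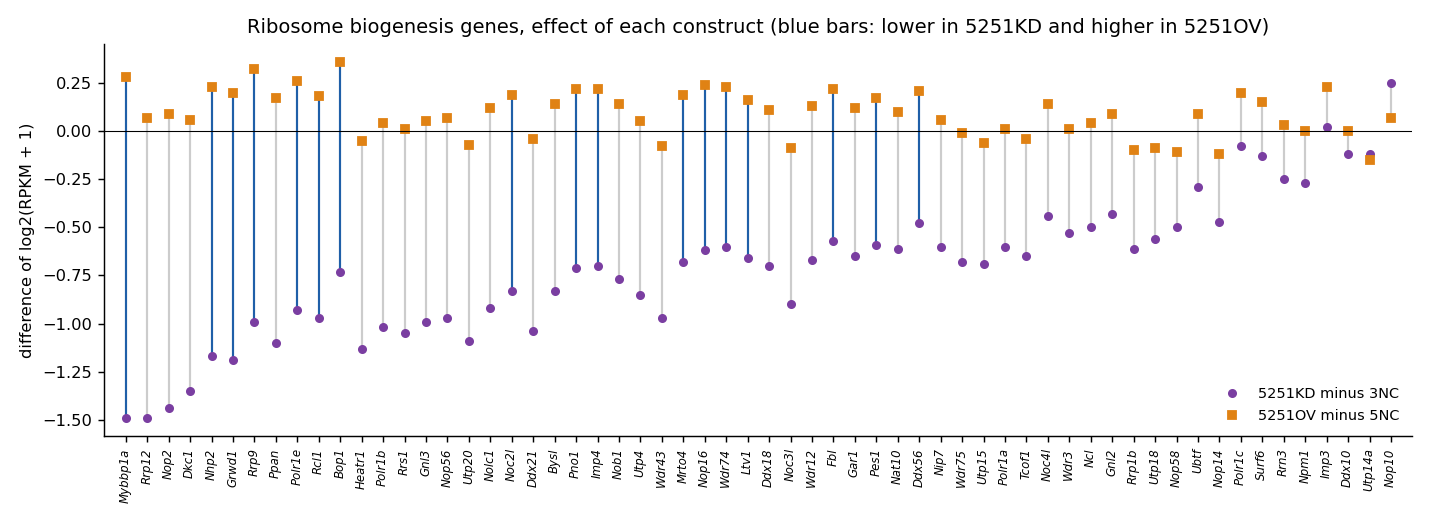
The 60 ribosome biogenesis genes, ordered by the difference of the effects, with the knockdown effect as circles and the overexpression effect as squares in differences of log2(RPKM + 1). The circles run from -1.49 to 0.25 with a median of -0.68, and the squares stay near 0 with a median of 0.09, and blue bars join the 17 opposite genes.

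Promoters are shown for opposite genes of the ribosome biogenesis list, Mybbp1a, Polr1e and Rrp9, and for Gja1 and C3, which lay on either side of all controls. The sequences run from 250 bases before to 50 bases after the annotated start, on GRCm38.p6 from RefSeq, which may not be the build of the deposited table. Of the 11435 genes tested 9195 (80.4%) had such a sequence. Capitals mark matches of the letters searched on both strands, TGANTCA for AP-1, TGACGTCA for the CRE, CACGTG for the E-box, CCGGAAG for ETS factors, TGACNNNGC for the antioxidant element, TATAAA for the TATA box and CCAAT for the CCAAT box.
Gja1 promoter, chr10:56377050-56377349, plus strand: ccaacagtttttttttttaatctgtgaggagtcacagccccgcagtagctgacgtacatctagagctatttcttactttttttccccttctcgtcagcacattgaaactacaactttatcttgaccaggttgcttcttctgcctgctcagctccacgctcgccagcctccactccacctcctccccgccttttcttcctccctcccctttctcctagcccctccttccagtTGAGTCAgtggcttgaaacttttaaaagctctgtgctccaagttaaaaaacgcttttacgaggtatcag
Mybbp1a promoter, chr11:72441077-72441376, plus strand: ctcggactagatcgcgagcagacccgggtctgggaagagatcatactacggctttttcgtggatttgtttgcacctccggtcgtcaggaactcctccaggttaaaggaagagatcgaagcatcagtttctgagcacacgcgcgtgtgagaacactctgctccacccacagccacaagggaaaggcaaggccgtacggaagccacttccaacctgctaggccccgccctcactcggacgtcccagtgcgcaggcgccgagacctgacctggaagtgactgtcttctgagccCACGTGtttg
Polr1e promoter, chr4:45018359-45018658, plus strand: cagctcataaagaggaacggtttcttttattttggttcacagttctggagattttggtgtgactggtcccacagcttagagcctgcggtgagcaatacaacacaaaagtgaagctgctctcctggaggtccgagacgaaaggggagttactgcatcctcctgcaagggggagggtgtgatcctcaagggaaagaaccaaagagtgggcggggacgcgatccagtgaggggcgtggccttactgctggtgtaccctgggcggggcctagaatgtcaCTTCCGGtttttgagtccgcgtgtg
Rrp9 promoter, chr9:106477059-106477358, plus strand: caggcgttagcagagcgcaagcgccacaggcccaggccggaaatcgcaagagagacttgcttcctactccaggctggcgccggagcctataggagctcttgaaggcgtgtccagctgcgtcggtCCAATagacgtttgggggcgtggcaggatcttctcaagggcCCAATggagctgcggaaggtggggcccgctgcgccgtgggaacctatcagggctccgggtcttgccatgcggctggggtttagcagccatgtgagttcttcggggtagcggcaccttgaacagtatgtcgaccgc
C3 promoter, chr17:57228087-57228386, minus strand: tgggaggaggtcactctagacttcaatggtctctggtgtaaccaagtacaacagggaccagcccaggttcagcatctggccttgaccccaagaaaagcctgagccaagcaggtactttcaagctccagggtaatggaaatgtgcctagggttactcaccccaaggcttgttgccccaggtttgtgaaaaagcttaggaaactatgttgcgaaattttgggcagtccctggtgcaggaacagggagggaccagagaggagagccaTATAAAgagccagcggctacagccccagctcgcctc
The Gja1 window holds 1 AP-1 match, that of Mybbp1a 1 E-box, that of Polr1e 1 ETS match on the other strand, that of Rrp9 2 CCAAT boxes and that of C3 a TATA box. Among genes lower in the knockdown and higher in the overexpression, 28.5% of 351 genes with a sequence held the ETS letters, against 12.6% of 539 genes of the reverse pattern and 21.4% of all genes. The CRE letters were in 5.7%, 2.23% and 3.75% in the same order, AP-1 in 7.69%, 4.45% and 5.64%, and the E-box in 14%, 11.7% and 12%. In the ribosome biogenesis list 22.6% of 53 genes held the E-box and 37.7% the ETS letters, and of its 15 opposite genes with a sequence 6 held the E-box, namely Grwd1, Imp4, Ltv1, Mybbp1a, Pes1 and Pno1. A match is a description of letters, the classes differ in base composition as given further on, and the part of base composition in these shares was not tested.

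Gja1, which encodes connexin 43, a subunit of gap junctions, was at 20.9, 20.3 and 19.8 RPKM in 3NC, 4.91, 5.06 and 5.29 in the knockdown, 16.7, 16.5 and 16.9 in 5NC and 21.2, 22.8 and 23.9 in the overexpression. The knockdown libraries lay far below and the overexpression libraries above all 6 controls, with means 0.25 and 1.36 times those of their own controls. The effects were -1.81 ± 0.0555 (adjusted p = 1.07e-11) and 0.42 ± 0.0555 (adjusted p = 0.000353), with a difference of -2.23 ± 0.0785 (adjusted p = 1.24e-10). Gja1 kept its class in all 20 alternatives.

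Tight junction genes that were opposite had the other direction. Of 15 tight junction genes 3 (20%) were higher in the knockdown and lower in the overexpression and 0 had the reverse pattern, against 6.05% and 3.7% of all genes. The 3 became 2 without replicate 1 or 3 of 3NC or replicate 1 of the knockdown. They also became 2 without replicate 1 or 2 of the overexpression or replicate 2 of 5NC. They became 5 without replicate 3 of the overexpression and 7 after the correction for length, GC content and level. Of 22 genes of adherens junctions and desmosomes 2 (9.09%) and 0 were opposite, near the share of all genes, and the 2 became 0 after quantile normalization, 4 after that correction, 0 without replicate 1 or 2 of the overexpression or any library of 5NC, 1 without any library of 3NC and 5 without replicate 3 of the overexpression. Jam2, a junctional adhesion molecule, was at 2.40, 2.70 and 2.86 RPKM in the knockdown, between 1.12 and 1.93 in the controls and at 1.11, 1.01 and 0.96 in the overexpression, with a difference of 1.18 ± 0.124 (adjusted p = 2.66e-06). It lay on either side of all controls. Cxadr, the coxsackievirus and adenovirus receptor of tight junctions, had effects of 0.33 and -0.33 but was not called opposite without replicate 1 or 2 of the overexpression or replicate 2 of 5NC. A list of 11 genes was made for the proteins that the study stained in C18-4 cells, with Ctnnd1 taken for a protein named there only as catenin. Of the 11, 6 were under 1 RPKM in every library, namely Cadm2, Cdh1, Cldn11, Dsg2, Gja4 and Ocln. Gja1 was the 1 opposite gene among the 5 tested. F11r, which encodes JAM1, rose in the knockdown with 0.54 ± 0.039 and had an overexpression effect of -0.01 ± 0.039 (adjusted p = 0.899), so its difference of 0.55 ± 0.0552 came from the knockdown arm. Tjp1, which encodes ZO-1, and Vcam1 had knockdown effects of 0.12 ± 0.0921 (adjusted p = 0.274) and 0.16 ± 0.0674 (adjusted p = 0.0554), overexpression effects of -0.33 ± 0.0921 and -0.26 ± 0.0674, which passed the test, and differences of 0.45 ± 0.13 and 0.42 ± 0.0952, which passed it too. Ctnnd1, p120 catenin, had a difference of -0.04 ± 0.0767 (adjusted p = 0.665).

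Matrix genes that were opposite were mostly higher in the knockdown and lower in the overexpression. Of 51 extracellular matrix genes 14 (27.5%) had this pattern, against 6.05% of all genes, and 1 had the reverse. The median difference of the list was 0.36, and its count was 14 after quantile normalization and 11 to 16 as single libraries were left out. Bgn, the proteoglycan biglycan, was at 100, 99.7 and 93.0 RPKM in the knockdown, between 68.5 and 78.2 in the controls and at 56.5, 52.9 and 46.5 in the overexpression, with a difference of 1.02 ± 0.0911 (adjusted p = 5.36e-07). Col5a3, a collagen V chain, was at 12.1, 12.7 and 9.56, between 6.20 and 7.99, and at 5.60, 5.88 and 5.54 in the same order, with a difference of 1.11 ± 0.122. Both lay on either side of all controls. Timp3, an inhibitor of metalloproteinases, had effects of 0.49 and -0.42, with 5NC above 3NC by 1.91. Mmp10, stromelysin 2, was the 1 matrix gene of the reverse pattern, and it was under 1 RPKM in 9 libraries and at 4.58, 4.42 and 4.14 in 3NC.

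Myl9 was at 21.5, 20.5 and 18.8 RPKM in the knockdown, between 5.65 and 6.93 in the controls and at 4.59, 4.13 and 3.53 in the overexpression. The controls met, and each construct lay apart from them. The effects were 1.51 ± 0.0912 (adjusted p = 4.33e-09) and -0.52 ± 0.0912 (adjusted p = 0.00248). Acta2, smooth muscle actin, had effects of 1.04 ± 0.0755 and -0.60 ± 0.0755, but 5NC was above 3NC by 1.22, the overexpression libraries lay between both controls and the knockdown libraries overlapped 5NC. Pfn1 and Cfl1, the actin-binding proteins profilin and cofilin, had the reverse pattern, with differences of -0.89 ± 0.103 and -0.66 ± 0.0848. Of 28 actomyosin genes 3 (10.7%) were opposite in each direction, against 6.05% and 3.7% of all genes, and after the correction for length, GC content and level 7 were higher in the knockdown and lower in the overexpression and 2 had the reverse pattern.

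Of 17 genes of MHC class I presentation 14 rose in the knockdown and 1 fell, against 31.9% and 23.5% of all genes, and 6 fell in the overexpression and 2 rose, against 13.9% and 8.07% (adjusted p up to 0.05). Of the 17, 5 (29.4%) were higher in the knockdown and lower in the overexpression and 0 had the reverse pattern, against 6.05% and 3.7% of all genes, with a median difference of 0.56. The 5 became 3 without replicate 2 of 3NC or replicate 1 or 2 of the knockdown, 7 without replicate 3 of the knockdown, and 9 both after scaling to the same sum and after the correction for length, GC content and level. Tap1, a subunit of the peptide transporter, was at 17.9, 18.9 and 16.5 RPKM in the knockdown, between 11.1 and 13.4 in the controls and at 10.01, 9.14 and 8.13 in the overexpression, a difference of 0.70 ± 0.1. H2-D1, a classical class I heavy chain, had a difference of 0.89 ± 0.0702, and its reads may be shared with other class I genes. Tap1 lay on either side of all controls but was not opposite after quantile normalization, and H2-D1 was not opposite in 4 of 20 alternatives, each leaving out 1 library of 5NC or of the overexpression. Of 34 interferon-stimulated genes 24 fell and 0 rose in the overexpression, against 13.9% and 8.07% of all genes. In the knockdown 12 rose and 11 fell (adjusted p up to 0.05), against 31.9% and 23.5% of all genes. Of the 34, 8 (23.5%) were higher in the knockdown and lower in the overexpression, and 8 (23.5%) were lower in both arms, against 6.05% and 1.98% of all genes. Usp18, a protease that removes ISG15, had effects of 0.36 ± 0.0807 and -0.54 ± 0.0807, and Ifit1, which binds viral RNA, fell in both, with -0.68 ± 0.105 and -0.62 ± 0.105 and a difference of -0.07 ± 0.148 (adjusted p = 0.725). Within the same list, then, some genes moved in opposite directions and others together. The count of opposite interferon genes was 2 after quantile normalization, 4 without replicate 1 of the overexpression and 5 without replicate 2 of it or replicate 1 or 2 of 5NC.

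NRF2 targets and glutathione genes had 8 opposite genes among 42 tested (19.0%), all lower in the knockdown and higher in the overexpression (3.7% of all genes). After the correction for length, GC content and level 7 had this pattern and 3 the reverse. Another 3 genes (7.14%) rose in both arms and 3 (7.14%) fell in both, against 1.44% and 1.98% of all genes. None of the 42 lay outside both controls, against 2.74% of all genes in the direction of the 8 and 4.06% in the reverse. Gsta1 was at 63.5, 65.0 and 67.9 RPKM in 3NC, 12.3, 13.2 and 11.98 in the knockdown, 20.2, 17.1 and 20.8 in 5NC and 37.1, 36.7 and 31.0 in the overexpression. Its overexpression libraries lay above 5NC and below 3NC. Pgd and G6pdx, enzymes of the pentose phosphate pathway, had the same arrangement, with differences of -1.38 ± 0.0749 and -1.14 ± 0.0834 and 5NC below 3NC by 1.15 and 1.12.

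Genes of ATF4 and the unfolded protein response included 7 opposite genes among 41 tested (17.1%, against 3.7% of all genes). With RPKM as deposited all 7 were lower in the knockdown and higher in the overexpression. This pattern and the reverse held for 7 and 1 genes after quantile normalization and 5 and 1 after scaling to the same sum. After the correction for length, GC content and level they held for 5 and 2. Another 3 genes (7.32%) rose in both arms and 3 (7.32%) fell in both, against 1.44% and 1.98% of all genes. Ddit3, the stress factor CHOP, was at 54.8, 55.2 and 58.2 RPKM in the knockdown, between 86.0 and 108 in the controls and at 153, 147 and 128 in the overexpression, a difference of -1.06 ± 0.0808 (adjusted p = 1.04e-07). It lay on either side of all controls. Manf, a secreted protein of the endoplasmic reticulum, was moved mainly by the overexpression, with effects of -0.27 ± 0.0474 and 0.77 ± 0.0474, the largest overexpression effect of the 41 tested genes. The median overexpression effect of the list was 0.05, and it was -0.01 after quantile normalization and after scaling to the same sum and -0.09 after the correction for length, GC content and level.

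**Figure D4:**
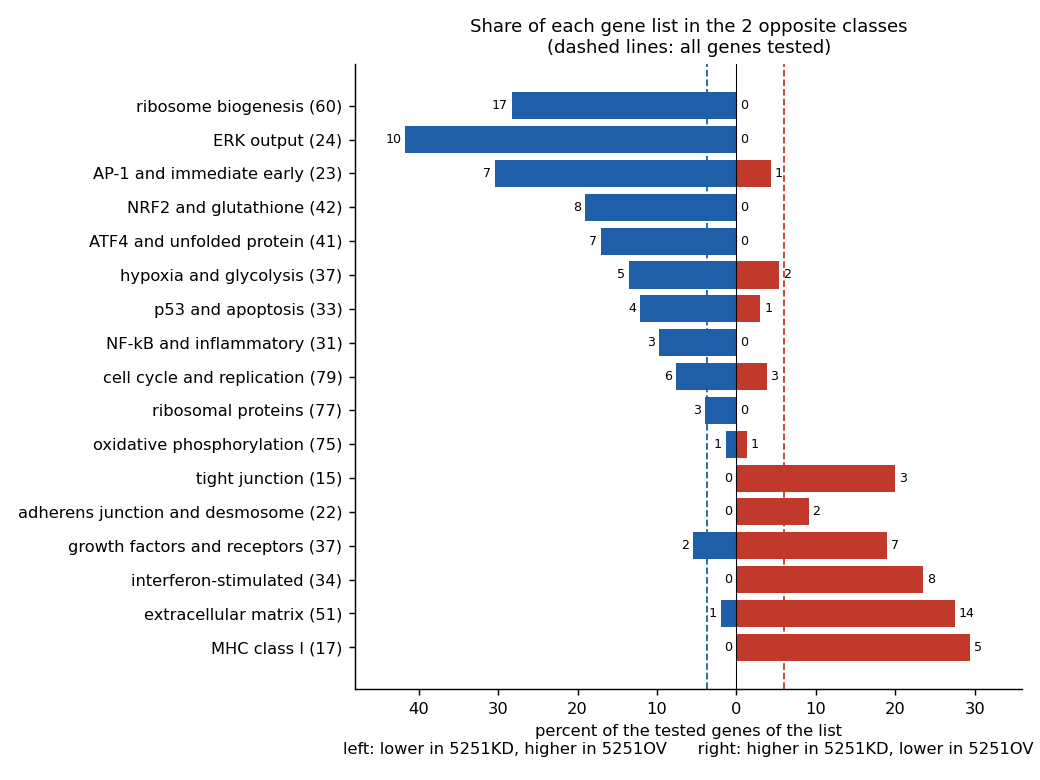
Percent of the tested genes of 17 gene lists that were lower in the knockdown and higher in the overexpression (left, blue) or the reverse (right, red), with gene counts at the bar ends and the number tested in brackets. The dashed lines stand at 3.7% and 6.05%, the shares over all 11435 genes. The ERK output bar reaches farthest left at 41.7%, followed by AP-1 and immediate early genes at 30.4% and ribosome biogenesis at 28.3%.

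Genes that moved the same way in both arms set the limit of the opposite pattern. Ccl5, a chemokine, was at 39.2, 41.1 and 38.3 RPKM in 3NC, 11.5, 9.20 and 11.7 in the knockdown, 33.6, 39.1 and 38.9 in 5NC and 25.6, 20.7 and 22.1 in the overexpression. Both constructs lay below all controls, with effects of -1.79 ± 0.0893 and -0.69 ± 0.0893. Hspa1b, an inducible HSP70 with a near-identical copy, also fell in both arms, with -1.02 ± 0.0736 and -0.50 ± 0.0736. Tmem151a, a transmembrane protein, rose in both, with 0.55 ± 0.0747 and 0.56 ± 0.0747. Uchl1, a marker of spermatogonia, was in the opposite class instead, with effects of -0.24 ± 0.065 and 0.34 ± 0.065, and lay on either side of all controls.

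The opposite classes differed in transcript length, GC content and level. Level entered the calls through the filter on low values and the intensity trend of the fit, and without that trend 698 and 357 genes were opposite. Length entered through RPKM, and GC content was not used. Genes higher in the knockdown and lower in the overexpression had a median length of 4403 bases and a median GC content of 46.3% for the longest transcript, and those of the reverse pattern 2391 bases and 53.6%, against 3420 bases and 49.7% over all genes with a value. The median level was 11.9 and 41.2 RPKM, against 14 over all genes. Across 11271 genes the overexpression effect went with GC content (Spearman's rho 0.39), with length (-0.41) and, across 11435 genes, with level (0.26), while the knockdown effect had -0.10, -0.01 and -0.08. The class higher in the knockdown took 9.9% of the genes in the lowest of 5 equal bins of GC content and 2.17% in the highest, and the reverse class took 0.884% and 6.17%. These properties are shared by all points of 12 libraries and carry no test. After both effects were corrected for a smooth trend on length, GC content and level, an alternative chosen after the data were seen, 1065 and 346 genes were opposite, and 783 of the 1115 were among them, while 18 of the 1115 changed sign in at least 1 of both effects, the only alternative of those tried in which any did.

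**Figure D5:**
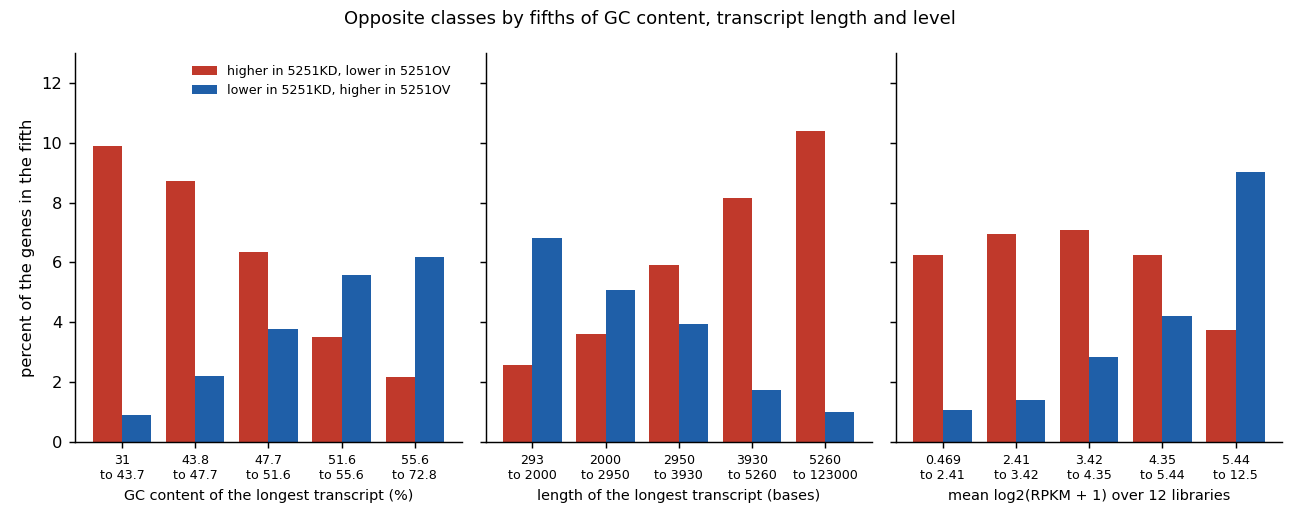
Percent of the genes in each of 5 bins of GC content, transcript length and mean level that fell into each opposite class, on axes from 0. The red class, higher in the knockdown and lower in the overexpression, falls from 9.9% to 2.17% with rising GC content and rises from 2.57% to 10.4% with length, and the blue class runs the other way.

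Replicate 3 of the overexpression stood apart from its group in its RPKM sum and on the third principal component. Its RPKM sum was 537526, against 580920 and 566543 in the other two and 533099 to 539746 in 5NC, and on the third principal component, which held 7.34% of the variance, it was at -2.2, against 15.3 and 11 in the other libraries of that group and -7.3 to -10.8 in 5NC. The alternative with library weights gives less weight to libraries that spread more around their group mean. There the weights were 0.693, 0.176 and 0.283 for replicates 1, 2 and 3 of the overexpression, lowest for replicate 2, and 0.316 to 6.33 in the other groups. The median effect over the 692 genes was -0.33, -0.30 and -0.20 in the overexpression libraries and over the 423 genes 0.31, 0.26 and 0.17; the medians nearest to 0 were those of replicate 3. These genes were called with all of these libraries, so the shared sign follows from that choice. Without it 1034 and 702 genes were opposite. Without replicate 1 of the overexpression there were 348 and 211, without replicate 2 of the overexpression 314 and 199, and without replicate 2 of 5NC 313 and 224. The number of genes called from the libraries of the other two numbers depended on the number left out. Without number 1 only 39 and 34 genes were opposite, and 39 and 33 of them kept both signs in the libraries left out, against 32.9% and 22.9% of all genes. Without number 2 only 29 and 19 were, and 26 and 19 kept them, against 30.1% and 20.8%. Without number 3, 83.6% of 876 genes higher in the knockdown and 81.0% of 659 genes of the reverse pattern kept both signs in those left-out libraries, against 34.5% and 22.2% of all genes. Of genes called in the same direction, 8 of 8 upward and 4 of 5 downward kept both signs without number 1 (22.5% and 21.3% of all genes), 4 of 4 and 6 of 6 without number 2 (25.3% and 23%), and 50.9% of 491 and 60.9% of 519 without number 3 (19.6% and 23%). Of the 1115 opposite genes, 196 of the 692 and 130 of the 423 kept their class in all 20 alternatives, and 75 and 57 of these also lay on either side of all controls.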

How the data were processed

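RNA-seq of 12 libraries of C18-4 cells, 3 in each of 4 groups, was analysed. The authors mapped reads to reference genes with SOAPaligner and deposited 1 table of RPKM values per gene and library. The genome build and gene set are not given in the sources used here, and neither are read counts, so the depth of each library is unknown. The labels name total RNA, while the methods describe oligo(dT) enrichment, and one heading of the methods names another lncRNA, lncRNA8276, for these cells. RPKM sums to different totals in each library, so a few abundant genes can shift all others, which the scaling alternatives address.

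Genes that reached 1 RPKM in 3 or more libraries were fitted with limma 3.58.1 (R 4.3.3) on log2(RPKM + 1), with 4 group means, an intensity trend, 8 residual degrees of freedom and Benjamini-Hochberg adjustment over 11435 genes. Contrasts were knockdown minus 3NC, overexpression minus 5NC, and their difference. The threshold was an adjusted p of 0.001 or less and at least 1 on the log2 scale. Opposite genes needed an adjusted p up to 0.05 in all 3 contrasts. A fold change on this scale understates that of low genes. An exact permutation test of 3 against 3 libraries cannot go below 0.1. The classification was tested on simulated data.

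Named genes were the 12 opposite genes in each direction with the largest smaller effect and no overlap of libraries (symbols of predicted genes left out), the 4 largest rises and falls of the difference, 4 same-direction genes each way, Purb, the 11 genes listed for stained proteins and up to 4 opposite genes per list. The members and lists were chosen with earlier results of these data known. Alternatives changed the pseudocount, low-value filter, scaling, threshold, replicate block, library weights, trend, and each library in turn. A correction for length, GC content and level, and the pattern outside all controls, were added after the data were seen. Transcript length and GC content had a value for 98.6% of genes. Figures were drawn with Python 3.11.15 and matplotlib 3.10.9.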

Additional observations from a re-analysis of the deposited data

How the results depend on the processing

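The difference of the effects called 161 to 191 genes higher and 154 to 178 lower as single libraries were left out, and 322 genes higher with a pseudocount of 0.1 and 110 after quantile normalization. At an adjusted p up to 0.05 alone it called 3568 and 2370 genes, the knockdown 3647 and 2688, and the overexpression 923 and 1595. With a pseudocount of 0.1 the knockdown called 166 and 197 genes and the overexpression 2 and 2. The overexpression called 1 gene higher after quantile normalization, 1 lower with the replicate block and 1 lower with library weights, and 0 to 1 higher and 0 to 9 lower with single libraries left out. Opposite genes higher in the knockdown numbered 436 after quantile normalization, 25 at an adjusted p of 0.001, and 1065 after the correction for length, GC content and level. Those of the reverse pattern numbered 257 with RPKM scaled to the same sum and 28 at that threshold. Leaving out single libraries gave 313 to 1034 and 199 to 702 opposite genes, 60 to 396 and 61 to 499 genes of the same direction (upward and downward), and 487 to 797 and 329 to 635 genes outside all controls. The lowest opposite counts came without replicate 2 of 5NC or replicate 2 of the overexpression, and the highest without replicate 3 of the overexpression. Genes upward in both arms numbered 100 with the same sum and 6 at an adjusted p of 0.001. Those downward in both numbered 136 without a filter, 141 after quantile normalization, 343 with the same sum, 4 at that threshold, 347 with library weights and 349 after the correction. Tmem151a had a difference of 0.16 after the correction, against -0.01. The causes were not tested.

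The replicate numbers did not pair the libraries: deviations of same-numbered libraries correlated at -0.034, -0.13 and -0.178 in the knockdown arm and 0.176, -0.133 and 0.027 in the overexpression arm, and not every library correlated best with its own number. With the replicate block 687 and 413 genes were opposite, 1035 of them shared with the 1115. Single genes gave 2574 values on the same side of their threshold and 1 of the other sign, that of Tmem151a given above, and 24 that lost it, of which 13 were of Nppb, 10 of Radil and 1 of Vcam1. Read depth is unknown, so no counting error could be given.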

Other observations

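Glycolytic enzymes were lower in the knockdown and higher in the overexpression where they were opposite. Of 37 tested genes of hypoxia and glycolysis 5 (13.5%) had this pattern and 2 the reverse, against 3.7% and 6.05% of all genes. Pkm, pyruvate kinase, had effects of -0.26 and 0.26, Pgam1, phosphoglycerate mutase, -0.44 and 0.22, and Ldha, lactate dehydrogenase, -0.30 and 0.20. The 5 were Eno1, Ldha, Pfkl, Pgam1 and Pkm, named after their values were seen, and the count was 1 after quantile normalization and 0 after the correction for length, GC content and level. It was 2 and 3 without replicates 1 and 2 of the overexpression, 8 without its replicate 3 and 3 without replicate 3 of 5NC, and the 2 became 1 without replicate 2 of the overexpression or replicate 3 of 5NC, 1 after quantile normalization and 4 after scaling to the same sum. Of 33 genes of p53 and apoptosis 4 (12.1%) had the same pattern, among them Plk2, a kinase induced by p53, with effects of -1.04 and 0.35, outside all controls. Xiap, an inhibitor of caspases, had the reverse pattern with 0.45 and -0.30.

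Oxidative phosphorylation held few opposite genes with RPKM as deposited. Of 75 tested genes 1 (1.33%) was opposite in each direction, against 6.05% and 3.7% of all genes, 6 (8.0%, against 1.44% of all genes) rose in both arms and 0 fell in both, against 1.98%. After the correction for length, GC content and level 9 were higher in the knockdown and lower in the overexpression and 2 had the reverse pattern, and the median overexpression effect was -0.01, against 0.10 as deposited and 0.02 after quantile normalization. Cox7c and Cox6b1, subunits of cytochrome c oxidase, had effects of 0.39 and 0.24 and of 0.26 and 0.34. Of 79 cell cycle and replication genes 6 (7.59%) were lower in the knockdown and higher in the overexpression and 3 (3.8%) had the reverse pattern, against 3.7% and 6.05% of all genes. The 6 ran from 4 to 8 as single libraries were left out, and the 3 became 1 without replicate 1 of the overexpression or replicate 2 of 5NC 6 without replicate 3 of the overexpression, and 5 both after scaling to the same sum and after the correction. The 6 included the mitotic kinases Aurka and Plk1 and the cyclin Ccnd1, and Rb1, which restrains entry into S phase, had the reverse pattern with 0.54 and -0.59.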
